A study of Mus musculus with 8 samples.

Results

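The 10 genes described here encode proteins of the enterocyte microvillus: Cdhr2, Cdhr5, Ush1c, Myo7b and Anks4b of the adhesion complex between microvilli, and Vil1, Espn, Pls1, Myo1a and Pdzk1 of the actin core and its membrane attachment. They are 10 of the 54532 genes in the count table, and each matched 1 row of it. The genes were chosen by name, with the contrast between these same libraries already known, and were thereby selected on the counts and fold changes given below. Their values between the genotypes are therefore a description without a test.

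Intestinal epithelial cells came from mice on day 5 of lactation (females on a C57BL/6J background, from the study's methods), 4 WT and 4 Rank-knockout, with 1 library of 3′ mRNA tags from each sample. In Rank-knockout mice a floxed Rank gene (Tnfrsf11a, which encodes the receptor activator of NF-κB) was deleted with a Cre recombinase under the promoter of Vil1, which is active in intestinal epithelium. Vil1 is thus both 1 of the genes described and the source of the promoter that drives the deletion. The labels give neither the age of the mice nor whether WT mice carried the Cre transgene. The study's methods state that littermates of the 2 genotypes were used. The labels do not say which samples share a litter, nor tie the replicate numbers to shared litters or days, and the main test takes no account of litters.

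Enterocytes carry a dense array of microvilli on the apical surface, the brush border, which holds digestive enzymes and transporters. Each microvillus has a core of parallel actin filaments that bundling proteins hold together and that myosins link to the membrane. Threads of protocadherin join the tips of neighbouring microvilli, and scaffold proteins and a motor at the tip anchor them to the core during brush border assembly. Brush border genes are known to be expressed mainly in differentiated villus cells, and less in crypts.

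Total counts ran from 1530781 to 4335653 per library, and WT replicate 2 was the only WT library above 1616024. The lowest count of any of the 10 genes in any library was 162, for Ush1c in WT replicate 1. Values are CPM, counts of a gene scaled to a common library size, after TMM scaling. A long and a short transcript each yield about 1 tag, so that CPM is also compared between genes. Such comparisons are approximate, as the share of tags that is counted may differ between genes. Tnfrsf11a had 77.4, 49.7, 41.7 and 73.9 CPM in WT replicates 1 to 4 and 27.2, 42.0, 35.5 and 47.2 CPM in Rank-knockout replicates 1 to 4, and the ranges overlapped. Its log2 fold change was -0.67 ± 0.22 (SE; adjusted p = 0.032 by edgeR's quasi-likelihood test), and the call was lost under 6 of 15 alternatives. Tags lie at the 3′ end of the transcript, and where the deleted part lies is not given in the sources used here, so this level does not check the deletion. The study reports, with staining among its evidence, that RANK was lost from the intestine of mice with this deletion.

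Epithelial identity and other cell types were examined with marker lists. Of the 9 pan-epithelial genes, 8 passed the filter on low counts and were tested. Their summed level was 9575 to 10883 CPM in WT, against 8508 to 10813 CPM in Rank-knockout, and Cdh1, the epithelial cadherin, had the highest mean of the list at 4599 ± 616 CPM in WT, against 4520 ± 558 CPM in Rank-knockout (SD, n = 4 each). Of the 8 tested, Epcam, an epithelial adhesion molecule, was called lower (2045 ± 210 to 1495 ± 109 CPM, log2 fold change -0.45 ± 0.14, edgeR adjusted p = 0.024) and Krt18 and Krt19 were called higher, while under library totals none was lower and 3 were higher. Markers of B, plasma and myeloid cells summed to at most 19.3 CPM in any library, and those of stromal, endothelial and muscle cells to at most 11.3 CPM; Cd79a and Tagln were at 0 throughout.

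HNF4 transcription factors are known regulators of enterocyte genes, and their motif and others were looked up in the promoter sequences of the 10 genes. RefSeq promoters of build GRCm38.p6, from 250 bases before to 50 bases after a start site, were matched by symbol to 9 of the genes, in 12 windows. The stretches shown are those that hold the HNF4 matches: the last 150 bases before the start of Anks4b, and 30 bases just after one of the starts of Pdzk1. They read 5′ to 3′ on the plus strand, and capitals mark the motif matches:
Anks4b, chr7:120173708-120173857: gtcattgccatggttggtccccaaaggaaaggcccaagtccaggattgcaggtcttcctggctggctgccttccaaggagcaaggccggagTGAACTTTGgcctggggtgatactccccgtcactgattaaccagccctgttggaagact
Pdzk1, chr3:96830069-96830098: aatctttgtcCAAAGTCCAgtgagttccaa

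On both strands, the HNF4 motif CAAAGTNCA was found in 2 of the 12 windows, those of Anks4b (on the minus strand) and Pdzk1, and in 1.41% of all 32851 windows of the table. The CDX motif TTTATNG was found in 1 window, of Espn, against 10.9% of all windows. Neither the GATA motif NGATAA (25.3% of all windows) nor the TATA box TATAAA (13.6%) had a match in the 12. The matches to different motifs do not overlap. A match is a description of the letters and not a binding site.

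Across all genes, 9855 passed the filter on low counts, and 14.6% of them (1438 genes) were called lower in Rank-knockout and 15.8% (1555 genes) higher, by edgeR with a Benjamini-Hochberg adjusted p under 0.05. With library totals in place of TMM scaling the split was 859 lower and 2566 higher, and the centre of the log2 fold changes over all tested genes shifted by 0.20. All 10 of the genes passed the filter. All 10 had a negative log2 fold change, 9 were among those called lower, and the exception was Pls1. In the same 9 every Rank-knockout library was below every WT library, which held for 14.3% of all tested genes. The median log2 fold change of the 10 was -0.80, against 0.02 over all tested genes, and under library totals it was -0.60 against 0.22. Since the genes were selected on this contrast, nothing is read from these shares.

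**Figure D1:**
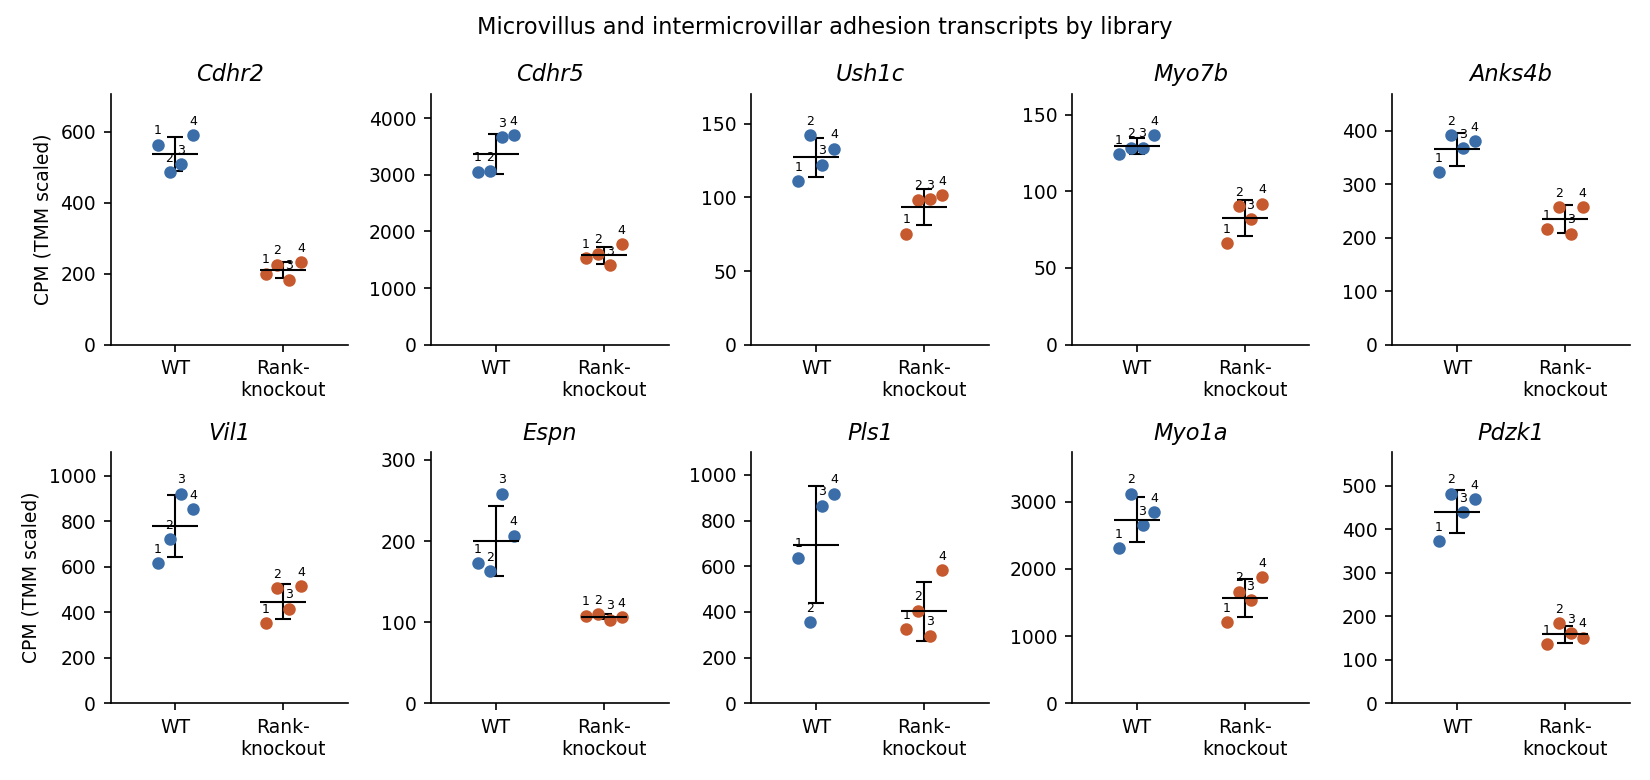
CPM (TMM scaled; axes start at 0) of the 10 genes in each library, with replicate numbers beside the points and the mean ± SD of 4 libraries as black bars. WT and Rank-knockout points do not overlap in 9 panels, and in Pls1 WT replicate 2 at 356 CPM lies among the Rank-knockout libraries.

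The protocadherins had the highest WT levels of the adhesion complex and its largest differences on the log2 scale. Cdhr2 (GRCm38 chromosome 13, 54701461 to 54736662, plus strand; positions of all 10 genes are in this build) encodes a protocadherin that binds Cdhr5 on the neighbouring microvillus. It had 564, 486, 509 and 590 CPM in WT, against 201, 226, 183 and 232 CPM in Rank-knockout, in the order of replicates 1 to 4 as in all such lists below. The lowest WT library was 2.09 times the highest Rank-knockout library, and the Rank-knockout mean was 39.2% of the WT mean (log2 fold change -1.35 ± 0.14, SE). Cdhr5 (chromosome 7, 141269083 to 141276786, minus strand), its partner, had 3055, 3064, 3663 and 3697 CPM in WT, against 1526, 1610, 1408 and 1770 CPM in Rank-knockout, again with no overlap and a log2 fold change of -1.09 ± 0.15. Counts of Cdhr5 were 6.29 ± 0.729 times those of Cdhr2 in WT and 7.51 ± 0.260 times in Rank-knockout (SD over 4 libraries each), with ranges of 5.41 to 7.20 and 7.13 to 7.69 that overlapped.

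The cytoplasmic members of the complex differed less. Ush1c (chromosome 7, 46195350 to 46238503, minus strand) encodes harmonin, the PDZ scaffold that gathers the complex at the tip. It had 111, 142, 122 and 133 CPM in WT, against 75.4, 98.3, 98.9 and 101 CPM in Rank-knockout. The groups did not overlap, but WT replicate 1 was only 9.48 CPM above the highest Rank-knockout library, and the log2 fold change of -0.45 ± 0.15 was the smallest of the 10. Its call was lost under 8 of 15 alternatives, among them the omission of Rank-knockout replicate 1, 2 or 3 or of WT replicate 2 or 4. Myo7b (chromosome 18, 31959234 to 32036961, minus strand), the tip myosin that carries the complex, had 124, 128, 128 and 136 CPM in WT, against 66.2, 90.4, 81.8 and 92.0 CPM in Rank-knockout. Anks4b (chromosome 7, 120173858 to 120185586, plus strand), a scaffold that links Ush1c and Myo7b, had 322, 391, 367 and 380 CPM in WT, against 216, 257, 207 and 256 CPM in Rank-knockout. Both had groups that did not overlap, and nearly equal log2 fold changes of -0.65 ± 0.14 for Myo7b and -0.64 ± 0.14 for Anks4b. Calml4, a calmodulin-like light chain of Myo7b and also part of the complex, was kept in a list of related genes below.

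Among the proteins of the actin core, Vil1 (chromosome 1, 74409376 to 74435559, plus strand) encodes villin, which bundles and, with calcium, severs actin. It had 617, 721, 921 and 853 CPM in WT, against 351, 506, 416 and 515 CPM in Rank-knockout, without overlap (log2 fold change -0.80 ± 0.17). Espn (chromosome 4, 152120331 to 152152371, minus strand), which encodes the bundling protein espin, had 173, 163, 258 and 206 CPM in WT, against 108, 110, 103 and 106 CPM in Rank-knockout. Its Rank-knockout libraries were the closest to each other of any of the 10 genes, with an SD of 2.78% of the mean against 21.5% in WT, and the log2 fold change was -0.90 ± 0.15.

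Pls1 (chromosome 9, 95752642 to 95845311, minus strand) encodes plastin 1, also called fimbrin, the remaining bundling protein. It had 637, 356, 865 and 917 CPM in WT, against 324, 406, 296 and 583 CPM in Rank-knockout. The ranges overlapped because WT replicate 2 was below Rank-knockout replicates 2 and 4, and the SD within a genotype was 36.9% and 32.1% of the mean, the widest of the 10. The log2 fold change was -0.78 ± 0.30, close to that of Vil1 in size but with an SE above that of the other 9. Without WT replicate 2 it was -1.01, and without Rank-knockout replicate 4 it was -1.02. Pls1 was called lower under 5 of 15 alternatives.

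The remaining genes attach the core and its cargo to the membrane. Myo1a (chromosome 10, 127705170 to 127720940, plus strand) encodes the brush border myosin that forms lateral bridges from the core to the membrane. It had 2312, 3119, 2655 and 2846 CPM in WT, against 1203, 1659, 1534 and 1874 CPM in Rank-knockout, without overlap (log2 fold change -0.80 ± 0.16). Pdzk1 (chromosome 3, 96829284 to 96870926, plus strand) encodes a PDZ scaffold for apical transporters. It had 373, 481, 438 and 469 CPM in WT, against 136, 183, 161 and 151 CPM in Rank-knockout, so that its Rank-knockout mean was 35.9% of the WT mean (log2 fold change -1.48 ± 0.14), the largest difference of the 10 on the log2 scale. These are bulk samples, so fewer cells that express a gene and less of its RNA per cell cannot be told apart.

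In order of level, Cdhr5 (3370 ± 358 CPM, SD, n = 4) and Myo1a (2733 ± 339 CPM) led in WT, and their ranges overlapped. Vil1 (778 ± 136 CPM), Pls1 (694 ± 256 CPM) and Cdhr2 (537 ± 48.2 CPM) followed, each overlapping the next. Pdzk1 (440 ± 48.6 CPM) and Anks4b (365 ± 30.4 CPM) overlapped as well, Espn (200 ± 43.0 CPM) stood apart from its neighbours, and Myo7b (129 ± 5.19 CPM) and Ush1c (127 ± 13.5 CPM) did not differ beyond their spread. The 2 most abundant genes thus gave 63.6% to 68.3% of the summed CPM of the 10 in each WT library, against 63.5% to 65.5% in Rank-knockout. In Rank-knockout the order was Cdhr5 (1578 ± 152 CPM), Myo1a (1567 ± 280 CPM), Vil1 (447 ± 77.8 CPM), Pls1 (403 ± 129 CPM), Anks4b (234 ± 26.1 CPM), Cdhr2 (210 ± 22.8 CPM), Pdzk1 (158 ± 20.04 CPM), Espn (107 ± 2.96 CPM), Ush1c (93.5 ± 12.2 CPM) and Myo7b (82.6 ± 11.8 CPM). Anks4b, below Cdhr2 and Pdzk1 in every WT library, had a mean above both in Rank-knockout, where its range overlapped that of Cdhr2 but not that of Pdzk1.

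Ratios within a library do not depend on how libraries are scaled. Pdzk1 counts were 47.6 to 66.7 per 100 Vil1 counts in WT and 29.3 to 38.8 per 100 in Rank-knockout, and Pdzk1 was the only gene whose ratio to Vil1 did not overlap between the genotypes. Cdhr2 counts were 55.3 to 91.6 per 100 Vil1 counts in WT and 44.0 to 57.1 per 100 in Rank-knockout, an overlap that Rank-knockout replicate 1 and WT replicate 3 made. In the other direction, Ush1c counts were 13.3 to 19.7 per 100 Vil1 counts in WT and 19.4 to 23.8 per 100 in Rank-knockout, with an overlap by WT replicate 2. The mean log2 ratio of the 9 other genes to Vil1 averaged -0.65 ± 0.15 over the WT libraries, against -0.75 ± 0.10 in Rank-knockout (SD, n = 4 each), and the ranges overlapped. The mean over the 9 genes thus moved by -0.10 relative to Vil1, less than its spread within WT, while the log2 ratio moved by -0.68 for Pdzk1, -0.56 for Cdhr2 and 0.35 for Ush1c. These ratios come from the contrast the genes were selected on and are not tested.

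**Figure D2:**
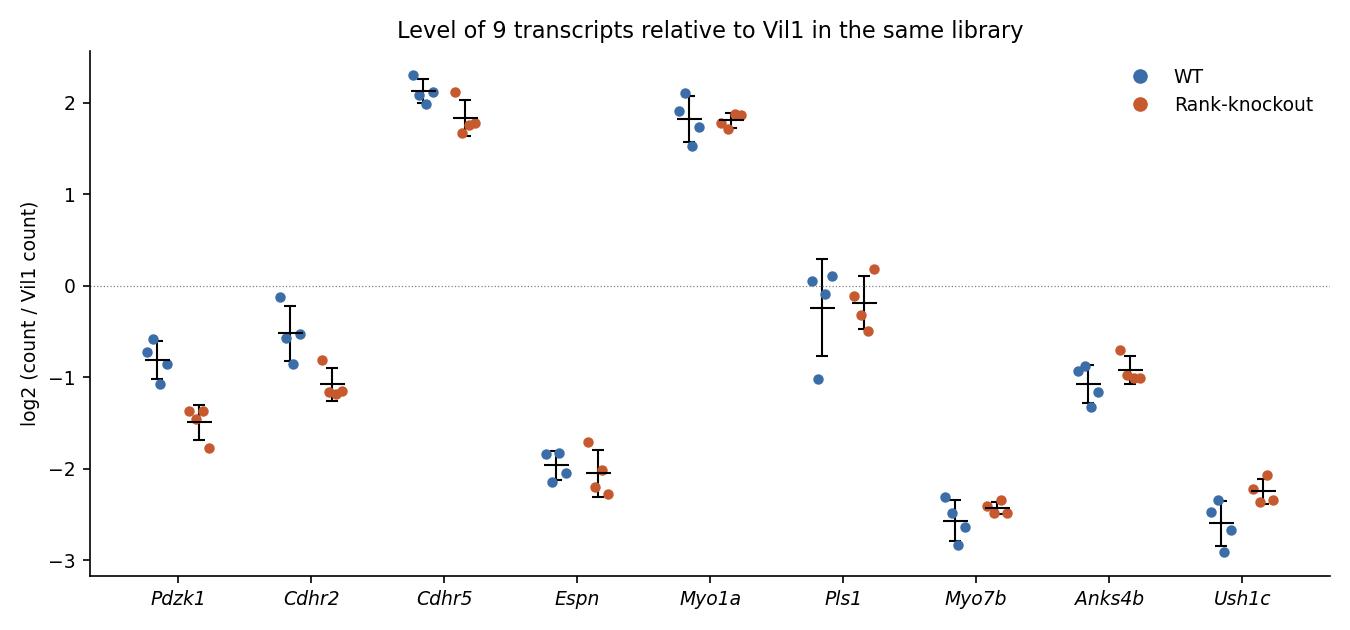
Log2 ratio of each gene's count to the Vil1 count in the same library (0.5 added to both), ordered by the difference between the genotypes; points are libraries and black bars are mean ± SD of 4. Only Pdzk1 has no overlap between the genotypes, and Ush1c is displaced upwards in Rank-knockout.

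Relative to pan-epithelial genes of the same library the 10 genes were lower. The log2 ratio of their summed counts to those of the 9 pan-epithelial genes was -0.32, -0.27, -0.07 and 0.10 in WT, against -1.02, -0.98, -1.08 and -0.93 in Rank-knockout. All Rank-knockout libraries were below all WT libraries, and the difference of the means was -0.86. With Epcam and Cdh1 alone as the reference it was -0.80. Among the reference genes, Epcam was called lower and Krt18 and Krt19 higher. These ratios, like those to Vil1, come from the contrast the genes were selected on and are not tested.

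Differences among libraries of 1 genotype were not used to choose the genes. In WT replicate 4 all 10 genes were above the WT mean of their log2 CPM, and in WT replicate 1 only 1 was, Cdhr2. In Rank-knockout, 10 were above their mean in replicate 2, 8 in replicate 4, 2 in replicate 3 and 1 in replicate 1. Over all tested genes, 49.2% to 53.9% were above the mean of their genotype in each of the 8 libraries. At least 8 of the 10 genes thus lay on the same side of their genotype mean in 6 of the 8 libraries, WT replicates 1 and 4 and all 4 of Rank-knockout. The 10 values come from the same libraries and are not independent of each other.

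**Figure D3:**
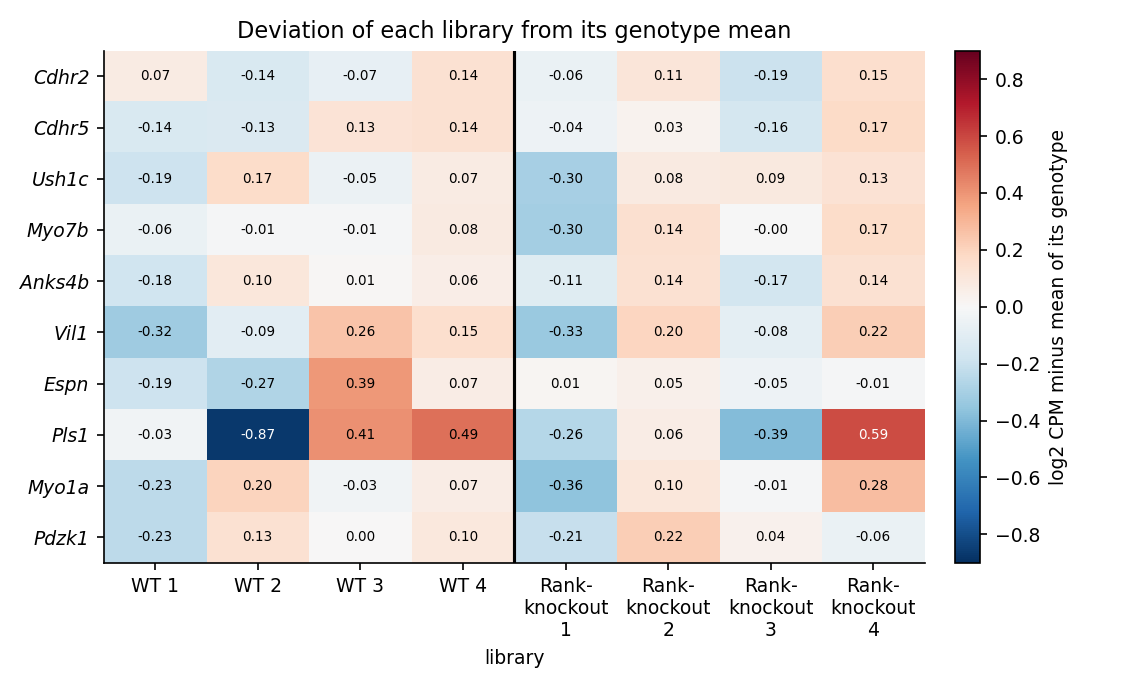
Log2 CPM of each of the 10 genes in each library minus the mean of its genotype, as numbers and colours (red above, blue below). The columns of WT replicate 4 and Rank-knockout replicate 2 are above 0 in all 10 genes, and the largest single deviation is that of Pls1 in WT replicate 2, at -0.87.

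Genes of replicating cells moved in the opposite direction. All 12 markers of the list, among them Top2a, which had the highest mean, and Mki67, were called higher in Rank-knockout (11 of 12 under RLE size factors, DESeq2 or limma-voom), and their summed level was 548 to 861 CPM in WT, against 1408 to 2213 CPM in Rank-knockout. Within Rank-knockout, replicate 1 had the highest sum of replicating cell genes (2213 CPM) and the lowest sum of the 10 genes (4207 CPM), and replicate 4 the lowest (1408 CPM) and the highest (5680 CPM). Within WT, replicate 4 had the lowest sum of replicating cell genes (548 CPM) and the highest sum of the 10 (10229 CPM), but the other 3 did not keep this order. Replicate 1, with the lowest sum of the 10 (8287 CPM), had 784 CPM of replicating cell genes, below the 861 CPM of replicate 2 and the 812 CPM of replicate 3, whose sums of the 10 were 9052 and 9926 CPM. The part of these markers in the fall of the 10 genes was not tested.

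**Figure D4:**
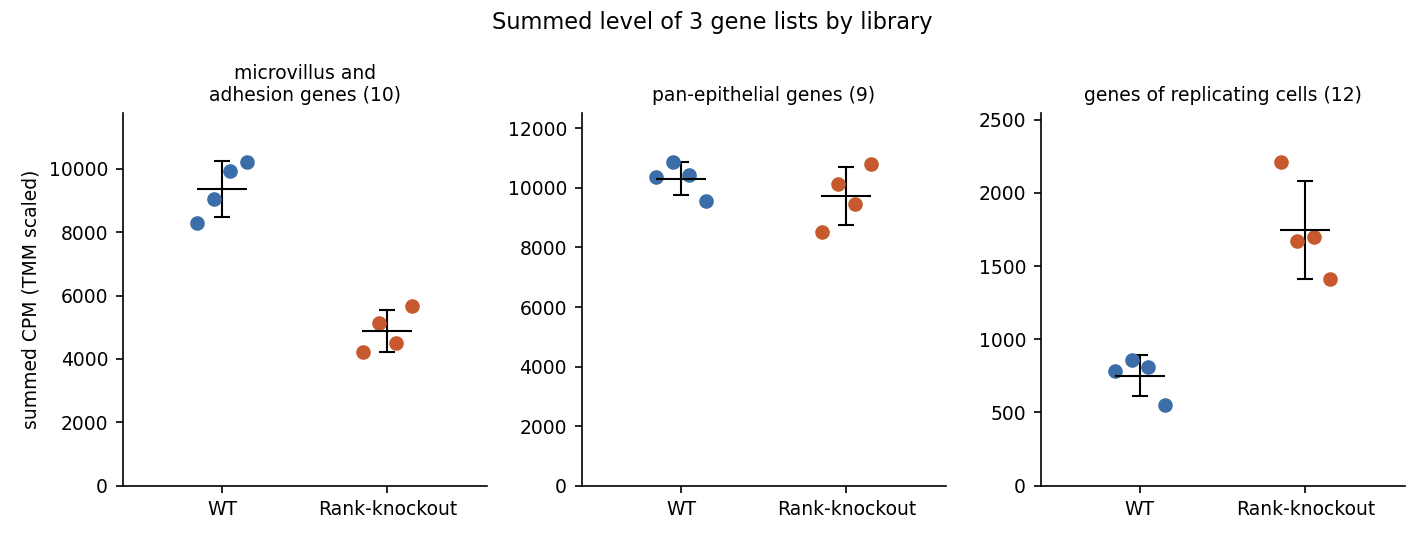
Summed CPM (TMM scaled; axes start at 0) of 3 gene lists in each library, in the order of replicates 1 to 4 from left to right, with mean ± SD of 4 libraries. The 10 genes are at 8287 to 10229 CPM in WT, against 4207 to 5680 CPM in Rank-knockout, pan-epithelial genes overlap, and genes of replicating cells are higher in Rank-knockout.

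Markers of other epithelial lineages gave mixed values. Of 8 Paneth cell markers 5 were called higher and none lower (2 higher with limma-voom, 7 with library totals or DESeq2), with sums of 2101 to 4482 CPM in WT, against 2912 to 9356 CPM in Rank-knockout that overlapped; Itln1 had the highest mean. Of 8 goblet cell markers 4 were called lower, Zg16 (the most abundant), Muc2, Fcgbp and Clca1, and 2 higher, Agr2 and Spink4; under library totals 2 were lower. Of 8 enteroendocrine markers 1, Tac1, was called higher (2 under library totals or without the 50 most abundant genes), and the most abundant was Chgb. None of the 4 tested tuft cell markers or 5 tested T cell markers was called, with Gzma (mean 156 CPM) the most abundant of the T cell list. Their part in the levels of the 10 genes was not tested.

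Other genes of the brush border were drawn from 6 lists of 77 genes, of which 54 passed the filter, 18 were called lower, 4 higher and 32 neither. Under library totals 11 were lower and 7 higher, and the number called higher was 2 with DESeq2 and after omission of any 1 of 5 libraries (WT replicate 1 or 4, and replicate 1, 2 or 3 of Rank-knockout). Their median log2 fold change was -0.37, and 33.3% were called lower, beside the 14.6% of all tested genes. The lists were put together with results of these data known, so that these shares are a description.

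Of 13 tip and assembly factors 11 were tested, 5 were lower and 1 higher. Cobl, an actin nucleator that promotes microvillus assembly, fell from 543 ± 85.8 to 254 ± 34.9 CPM (SD, n = 4 each; log2 fold change -1.10 ± 0.15, edgeR adjusted p = 0.00025). Eps8, which caps and bundles actin at the tip, and its relatives Eps8l2 and Eps8l3 fell by nearly the same amount, with log2 fold changes of -0.92, -0.92 and -0.90 and adjusted p values of 0.00042, 0.00082 and 0.00089. Calml4 fell as well (-0.71 ± 0.13, adjusted p = 0.00099, edgeR), beside -0.65 ± 0.14 for Myo7b, whose light chain it encodes. Eps8l3 had the highest level of the list, 695 ± 97.5 CPM in WT. The exception was Twf2, a twinfilin that binds actin monomers and filament ends, which rose from 10.2 ± 1.48 to 23.7 ± 5.23 CPM (log2 fold change 1.22 ± 0.23, edgeR adjusted p = 0.0015).

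Membrane linkers behaved unevenly: of 15 genes 11 were tested, 5 were lower and none higher, while under library totals 4 were lower and 1 higher. Ezr, which encodes ezrin, the link between microvillar actin and the membrane, was the most abundant and fell from 1437 ± 262 to 688 ± 65.4 CPM (log2 fold change -1.06 ± 0.16, edgeR adjusted p = 0.00035). Its binding partner Slc9a3r1, the PDZ scaffold EBP50, fell by 0.90 ± 0.19 on the log2 scale (adjusted p = 0.0031 by edgeR), and Stk10, a kinase that phosphorylates ezrin, fell from 28.4 ± 4.97 to 9.56 ± 3.11 CPM (adjusted p = 0.00053, edgeR). Slk, a related ezrin kinase at a higher level, had 101 CPM in WT, against 109 CPM in Rank-knockout and was not called. Among the other myosins of the list, Myo1e was called lower (40.1 ± 9.56 to 23.5 ± 2.88 CPM, log2 fold change -0.75 ± 0.20, edgeR adjusted p = 0.0093), while Myo1c, Myo1d and Myo6 were not called, with log2 fold changes of -0.03 ± 0.24, -0.13 ± 0.15 and -0.08 ± 0.14. These myosins and Slk were chosen for mention after their values were seen.

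Of 13 actins, bundlers and severing proteins 8 were tested, 3 were lower and 1 higher, while under library totals none was lower and 2 were higher. Actb, cytoplasmic actin and the most abundant gene of the list, fell from 13600 ± 1735 to 9115 ± 1966 CPM (log2 fold change -0.58 ± 0.18, edgeR adjusted p = 0.023), a call lost under 4 of 15 alternatives. Scin and Svil, of the same family as villin, were lower (-0.77 ± 0.25 and -0.57 ± 0.17, edgeR adjusted p = 0.031 and 0.019), and Capg, also of that family, was higher at a low level (6.74 ± 3.47 to 12.6 ± 1.09 CPM, adjusted p = 0.046); these calls were lost under 6, 4 and 6 alternatives. Pls3 and Lcp1, which encode the other two plastins, were at 3.03 ± 1.42 and 4.24 ± 0.899 CPM in WT, far below Pls1, and were not called. Actg1 was at 0.51 CPM in WT, at most 1.37 CPM in any library; its level is uncertain.

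In the terminal web, where the core rootlets end, and among keratins, 11 of 13 genes were tested, 2 were lower and 2 higher (1 lower under library totals and 4 with the replicate number as a block; 1 higher under RLE size factors, DESeq2 or limma-voom). Krt20, a keratin of differentiated villus cells and the most abundant of the list, fell from 1843 ± 208 to 948 ± 84.0 CPM (log2 fold change -0.96 ± 0.14, edgeR adjusted p = 0.00036), and Sptbn1, a spectrin, fell by 0.52 ± 0.14 in log2 units (adjusted p = 0.0094, edgeR). Krt19 rose from 313 ± 48.7 to 493 ± 99.3 CPM (0.65 ± 0.17, edgeR adjusted p = 0.0089), and Krt18 by 0.41 ± 0.15 (adjusted p = 0.046, edgeR), a call lost under 9 of 15 alternatives. The ranges of both overlapped between the genotypes, and both are also in the pan-epithelial list, as is Krt8.

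In apical trafficking, the delivery of membrane to the brush border, 11 of 12 genes were tested and 3 were lower, or 1 under library totals and 5 with the replicate number as a block. Stx3, the apical syntaxin, fell by 0.68 ± 0.16, Myo5b, the recycling endosome myosin, by 0.62 ± 0.17 and Rab11fip1, a Rab11 effector, by 0.40 ± 0.13 in log2 units (edgeR adjusted p = 0.0045, 0.013 and 0.028), with the last call lost under 7 of 15 alternatives and that of Myo5b under library totals. All 11 had a negative log2 fold change, from -0.68 to -0.13, and 10 of 11 did under library totals. Vamp8, the most abundant at 378 ± 27.8 CPM in WT, against 290 ± 58.8 CPM in Rank-knockout, was not called, although its ranges did not overlap. With the replicate number as a block it was called lower (log2 fold change -0.40, edgeR adjusted p = 0.04).

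Relatives of the adhesion complex genes that are known from hair cells or other tissues were at low levels or at 0. Of 11 such genes 9 did not pass the filter, and Ush1g and Cdhr1 were among those at 0 in all 8 libraries. Myo7a, the paralogue of Myo7b, was the most abundant, at 12.5 ± 3.57 CPM in WT, against 11.3 ± 2.95 CPM in Rank-knockout, and was not called (edgeR adjusted p = 0.62). The other tested gene, Whrn, which encodes the scaffold whirlin, was at 2.67 ± 2.10 CPM in WT and at 6.70 ± 2.20 CPM in the Rank-knockout libraries, without overlap (log2 fold change 1.18 ± 0.47). It was not called (edgeR adjusted p = 0.068), but 1 gene of the list was called higher under library totals, without the 50 most abundant genes, with no filter and with limma-voom. In WT the mean level of Myo7b was 10.3 times that of Myo7a.

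**Figure D5:**
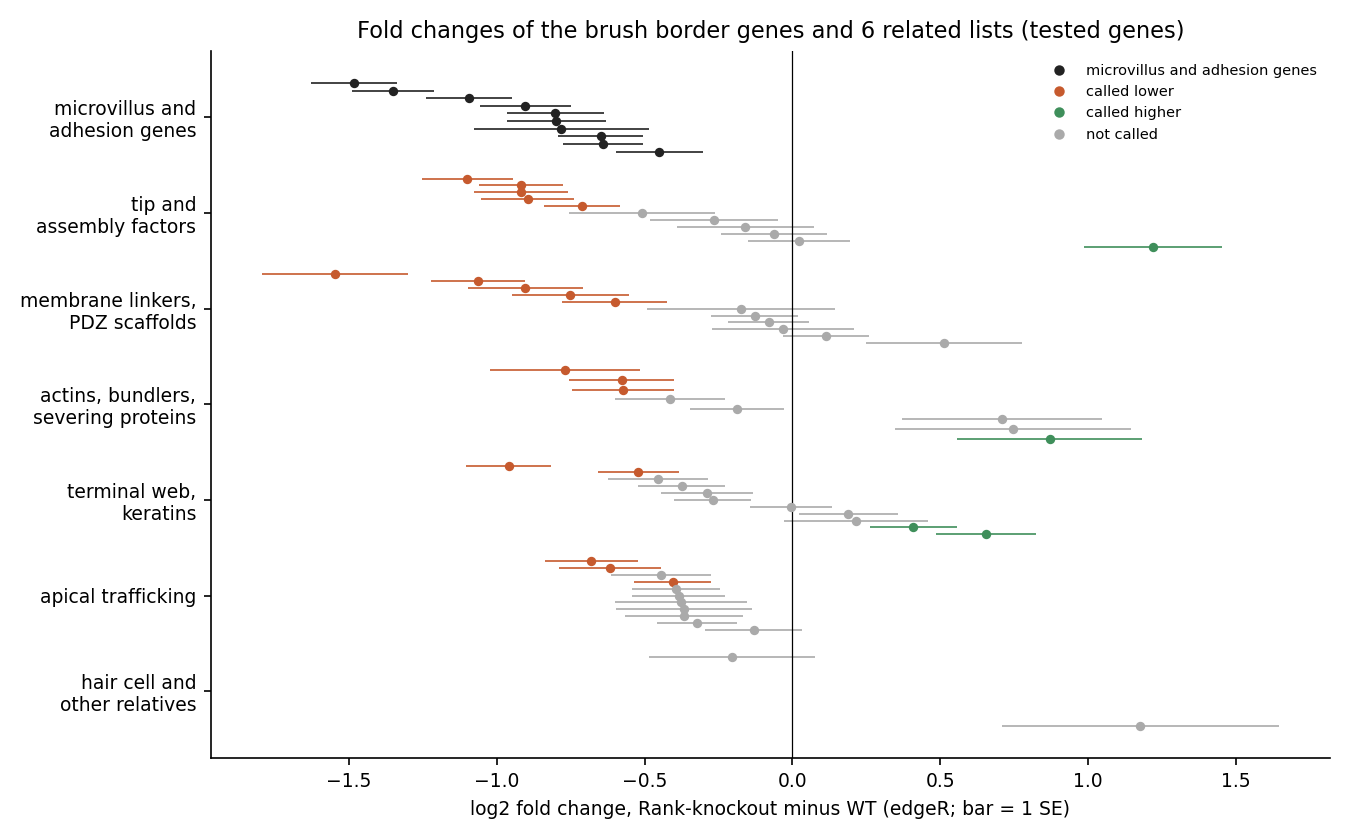
Log2 fold change, Rank-knockout minus WT (edgeR; bars are 1 SE), of the tested genes in 7 lists, with 0 marked by the vertical line. The 10 microvillus and adhesion genes (black, -1.48 to -0.45) are all below 0, while each list of related genes but apical trafficking has genes on both sides (under library totals that list has 1 gene above 0).

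Transcription factors of enterocytes did not move together. Of 11 genes 10 were tested. Hnf4g fell from 122 to 69.5 CPM (log2 fold change -0.82 ± 0.17, edgeR adjusted p = 0.0027) and Klf4 from 1584 to 686 CPM (-1.21 ± 0.15, adjusted p = 0.00015, edgeR), while Cdx1 rose from 49.0 to 85.8 CPM (0.81 ± 0.16, edgeR adjusted p = 0.0015). Hnf4a had 132 CPM in WT, against 148 CPM in Rank-knockout and was not called (adjusted p = 0.45, edgeR), nor were Cdx2, Gata4, Gata6 and Klf5. Under library totals 2 of the tested factors were called lower and 2 higher, and 3 had a negative log2 fold change, against 5 under TMM scaling. The products of Hnf4g and Hnf4a are both known to bind the HNF4 motif. Whether either acts on the 10 genes described here was not tested.

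The genes outside the 10 with the most similar pattern were looked for among 9458 genes with a mean of at least 5 CPM, by the root mean square distance from the mean centred log2 CPM profile of the 10 over 8 libraries. The nearest 5 were Iqgap2 (0.066), 2010003K11Rik (0.071), Prkg2 (0.073), Tmem106a (0.080) and Kalrn (0.082). The 10 genes themselves lay at 0.11 (Vil1) to 0.38 (Pls1) from their own mean profile. Iqgap2, which encodes a scaffold that binds actin, had 615, 646, 705 and 733 CPM in WT, against 303, 438, 330 and 400 CPM in Rank-knockout, without overlap. The profile is centred over all 8 libraries, so it includes the difference between the genotypes on which the 10 genes were selected. Genes chosen as nearest to it share that difference by their choice, which is not a further result.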

How the data were processed

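Intestinal epithelial cells of lactating mice, 4 WT and 4 Rank-knockout, were profiled by 3′ mRNA sequencing of 1 library each (QuantSeq, forward). As the study's methods describe, reads were trimmed by the authors with BBDuk, and the authors removed ribosomal, mitochondrial, phiX and adapter reads with bowtie2, aligned the rest to GRCm38 (mm10 per the labels) with STAR, and counted sense-strand reads with featureCounts. What the authors deposited is the table of raw counts, without normalization. The methods name no molecular identifiers, and copies made by PCR may thus be among the reads. Tests for calls used the counts as deposited.

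Gene symbols and positions come from GENCODE M21 (54495 of 54532 genes matched). None of the 10 genes overlaps another gene on its own strand. Total counts were 1530781 to 4335653 per library, so that counting error is larger in the shallower libraries. The test was that of edgeR 4.0.16, run in R 4.3.3 (filterByExpr, TMM scaling, robust quasi-likelihood F-test, genotype as the only term), with Benjamini-Hochberg adjustment over 9855 genes and a threshold of 0.05. Fold changes are Rank-knockout minus WT. Log2 CPM used a prior count of 2, and ratios to Vil1 an offset of 0.5. The scripts were tested on simulated data. Replicates are separate samples per the labels; the p values measure the spread between these samples.

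The 10 genes, the related lists, the marker lists and the tests were chosen with earlier results of these data known. Named were all 10 genes; Tnfrsf11a; in each related list the called genes with the 3 smallest p in each direction and the most abundant gene in WT; the 5 genes of most similar pattern; in lists of other cells the most abundant gene and those at 0; Calml4 and some further genes were named after their values were seen. Results were recomputed with DESeq2 1.42.0, with limma-voom (limma 3.58.1), with no filter on low counts, with 3 other scalings (RLE size factors; the library totals; totals less the 50 most abundant genes), with a block for the replicate number, and leaving out 1 library at a time. Protein sequences were not used here, and no promoter window was printed for Myo7b. Some genes and a motif that these rules select are not reported here.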

Additional observations from a re-analysis of the deposited data

Results flagged for a closer look

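A library stood apart from the other 3 of its genotype, by Dixon's test at the 95% level, in 4 of 80 groups of 4 examined, and chance alone passes about 1 group in 20. Among the 10 genes this was Ush1c in Rank-knockout, where replicate 1 (75.4 CPM) lay below the others (98.3 to 101 CPM), with a gap of 0.879 of the group's range. The same library was the lowest for Eps8 (0.869 of the range) and Eps8l3 (0.891 of the range), both tip and assembly factors. Without it the log2 fold change of Ush1c was -0.35 and its call was lost. Among library totals, WT replicate 2 (4335653 counts) lay above the other WT libraries, with a gap of 0.970 of the range.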

How the results depend on the processing

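The log2 fold changes of the 10 genes stayed below 0 in all 150 values recomputed under the 15 alternatives. Calls of Ush1c were lost under 8 of them, with log2 fold changes from -0.48 to -0.25 in those 8, and Pls1 gained a call under 5; the other 8 genes kept their call under all 15. Library totals lowered the number of all genes called lower to 859 and raised those called higher to 2566, changed the related genes to 11 lower and 7 higher, and moved the median of the 10 genes to -0.60. DESeq2 called 2 related genes higher. With 1 library left out in turn, 8 to 10 of the 10 genes were called lower and their median ran from -0.92 to -0.69; 1097 to 1564 genes in all were called lower and 1020 to 1723 higher, and 13 to 20 related genes lower and 2 to 5 higher. The low counts of genes called higher were 1020 without WT replicate 4, and 2 related genes after omission of WT replicate 1 or 4, and likewise of replicate 1, 2 or 3 of Rank-knockout. Under the same omissions the difference in mean log2 ratio to Vil1 ran from -0.16 to -0.04 and that to pan-epithelial genes from -0.92 to -0.78. The cause of these shifts was not tested. With the replicate number as a block, 10 of the 10 genes, 1602 genes lower and 1708 higher were called, and 22 related genes were lower; same-numbered libraries had correlations of deviations of 0.05, 0.15, -0.14 and 0.32, which does not show whether the numbers pair the samples; WT replicates 1 and 4 correlated best with their own number, and 2 and 3 did not. Among the 5 genes of most similar pattern 4 remained with a prior count of 0.5. Depth limits the genes under a few CPM most; each of the 10 genes had at least 162 counts in every library.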
